A study of Mus musculus with 4 samples.

Results

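The antioxidant enzymes described here are 10 genes of peroxide and superoxide removal in mouse early erythroid progenitors: Prdx1, Prdx2, Prdx3, Gpx1, Gpx4, Sod1, Sod2, Cat, Txnrd1 and Gclm. They were taken by symbol, as every probe set of the arrays whose annotation carries exactly 1 of these symbols. All 10 were present, on 13 of 35556 probe sets, and stand among 19938 genes with a probe set of their own. Prdx1, Prdx2 and Gpx4 had 2 probe sets each, and the other genes had 1.

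The study measured RNA recovered by immunoprecipitation on Affymetrix whole-transcript arrays, 2 arrays with control rabbit IgG and 2 with antibody to a protein that binds RNA (RBP). All 4 arrays share the same source, C57BL/6 fetal liver at E14.5, from which cells positive for CD34, CD41, CD16/32, Sca-1 or lineage markers had been removed before a sort for c-Kit with low CD71. The labels leave the protein unnamed, and it is taken to be ZFP36L2, a binder of AU-rich elements in mRNA, as remembered from the published work. The labels do not say whether replicate arrays came from separate cell preparations, so p-values cover the spread of these arrays, in part perhaps technical.

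Red cells carry iron and oxygen together and so meet a steady supply of superoxide and hydrogen peroxide. Superoxide dismutases turn superoxide into hydrogen peroxide, and catalase, glutathione peroxidases and peroxiredoxins then reduce it. The last enzymes depend on thiols, which thioredoxin reductase and the glutathione-making enzymes keep supplied with electrons from NADPH. Peroxiredoxin 2 is among the most abundant proteins of the mature red cell.

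A level below is the deposited log2 value of a probe set, and a difference is the mean RBP level minus the mean IgG level, where 1 unit is 2-fold. Genes were called higher or lower at an adjusted p under 0.05 in limma, a linear model that shares variance across genes, with Benjamini-Hochberg adjustment over 19938 genes. The RBP arrays had lower medians (5.57 and 5.62) than the IgG arrays (5.85 and 5.93) and wider interquartile ranges (3.61 and 3.73 against 2.87 and 2.91). Replicates correlated across genes at Pearson's r of 0.977 (IgG) and 0.993 (RBP), and the median SE of a difference was 0.17. With 2 arrays a group, the smallest exact two-sided permutation p is 0.333. Without the sharing of variance, 2 of all genes were higher and 1 was lower at an adjusted p under 0.05, and none of these was an antioxidant enzyme.

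The enzymes divided. Txnrd1, the cytosolic thioredoxin reductase, was higher in the RBP immunoprecipitate (2.32-fold), Prdx1 and Prdx3 were lower (1.67-fold and 1.58-fold), and the other 7 did not pass. The call of 1 of 10 enzymes as higher stood beside 23.8% of all genes, and the call of 2 of 10 as lower beside 6.54%. Their median difference was -0.02, the same as the median of all genes. Among the 7408 genes with a mean level of 7 or more, the range in which all 10 enzymes lay, 52.4% were higher, 3.78% were lower, and the median difference was 0.70. Without RBP array 1, Txnrd1 was at 1.04, Prdx1 at -0.61 and Prdx3 at -0.55. Without RBP array 2 they were at 1.39, -0.86 and -0.77. Calls became fewer over all genes too when either RBP array was left out.

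**Figure D1:**
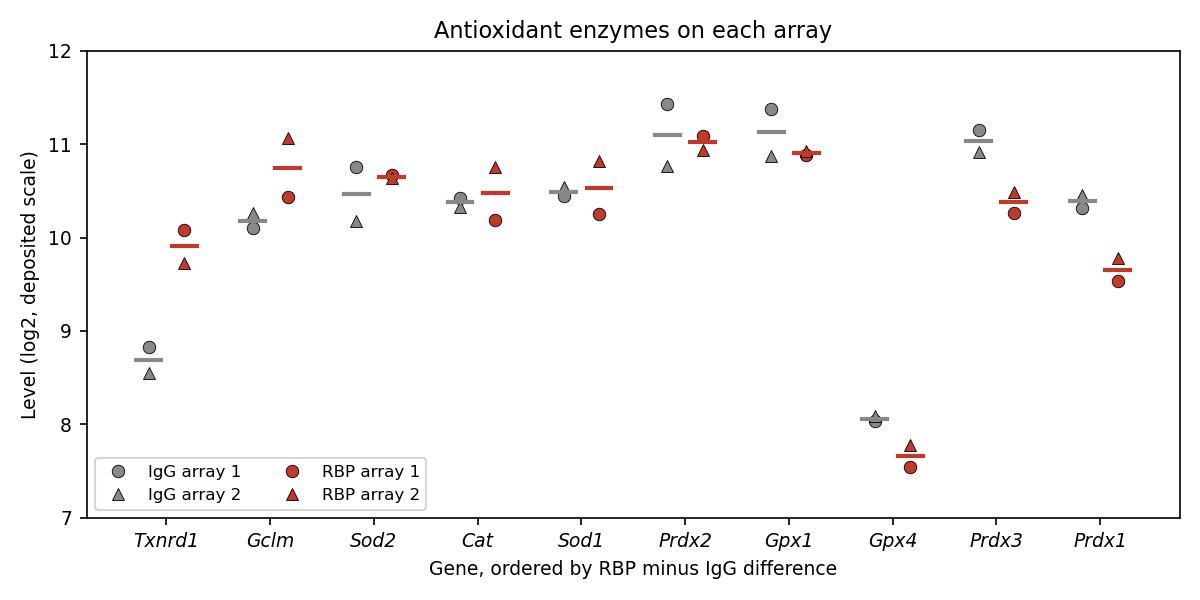
Level of each antioxidant enzyme on each array (y axis, deposited log2 scale), with genes on the x axis ordered by the RBP minus IgG difference. Grey and red mark IgG and RBP arrays, circles and triangles mark arrays 1 and 2, and horizontal lines mark group means; both Txnrd1 RBP arrays (10.08 and 9.73) sit above both IgG arrays, and both Prdx1 and Prdx3 RBP arrays sit below.

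Prdx1 encodes a cytosolic peroxiredoxin, which reduces hydrogen peroxide with thioredoxin. It read 10.32 and 10.46 with IgG and 9.53 and 9.78 with RBP. The groups did not overlap, and the gap between them was larger than the gap of 0.15 or 0.25 between arrays of a group. The difference was -0.74 ± 0.16 (SE, n = 2 per group; limma, adjusted p = 0.0228). The other Prdx1 probe set (10507328) read 10.04 and 9.85 with IgG and 9.30 and 9.26 with RBP, and it too was lower, by -0.66 ± 0.15 (limma over all single-gene probe sets, adjusted p = 0.0265).

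Prdx3 encodes the mitochondrial peroxiredoxin. It read 11.15 and 10.92 with IgG and 10.26 and 10.49 with RBP, again without overlap. The difference was -0.66 ± 0.17 (SE, n = 2 per group; limma, adjusted p = 0.0341). Both calls kept their direction and lost the threshold when either RBP array was left out: for Prdx1 the difference was -0.61 without RBP array 1 and -0.86 without RBP array 2 (limma, adjusted p = 0.201 and 0.0836), and for Prdx3 it was -0.55 and -0.77 (adjusted p = 0.26 and 0.116). Prdx3 was also lost without IgG array 1 (-0.54; limma, adjusted p = 0.0603).

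Prdx2, the peroxiredoxin of the red cell cytosol, showed no such separation. The probe set with the higher signal (10356999) read 11.43 and 10.77 with IgG and 11.09 and 10.94 with RBP. The IgG arrays lay 0.66 apart and enclosed both RBP arrays, and the difference was -0.08 ± 0.24 (SE, n = 2 per group; limma, adjusted p = 0.807; 95% interval -0.69 to 0.52). The other Prdx2 probe set (10573483) read 9.45 and 8.95 with IgG and 9.34 and 9.20 with RBP, a difference of 0.07 ± 0.21, so the sign of this small difference turned with the probe set. RefSeq lists pseudogene copies of Prdx1, Prdx2 and Gpx4, and the signal of a gene and of a near-identical copy cannot be separated on these arrays. The genomic position of the probe sets was not tested. The probe set with the higher signal, used for these genes, may therefore be one placed on a copy.

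Gpx1 and Gpx4 encode glutathione peroxidases that carry selenocysteine. Gpx1 acts on soluble peroxides in the cytosol and mitochondria, and Gpx4 on lipid peroxides in membranes. Gpx1 read 11.38 and 10.87 with IgG and 10.88 and 10.93 with RBP, with both RBP arrays inside the IgG range. Its difference was -0.22 ± 0.20 (SE, n = 2 per group; limma, adjusted p = 0.429; 95% interval -0.73 to 0.29). Gpx4 read 8.04 and 8.09 with IgG and 7.54 and 7.78 with RBP. Both RBP arrays were below both IgG arrays, but the difference of -0.40 ± 0.16 did not pass (limma, adjusted p = 0.104), and the other Gpx4 probe set gave the same -0.40 ± 0.16 (adjusted p = 0.121). Gpx4 did pass as lower after quantile normalization (-0.83; limma, adjusted p = 0.0317), where 11.1% of all genes were higher and 2.77% lower.

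The dismutases and catalase were near 0. Sod1, the cytosolic copper and zinc enzyme, read 10.44 and 10.54 with IgG and 10.25 and 10.82 with RBP. Sod2, the mitochondrial manganese enzyme, read 10.76 and 10.18 with IgG and 10.67 and 10.64 with RBP. Cat, the peroxisomal enzyme that splits hydrogen peroxide, read 10.42 and 10.33 with IgG and 10.19 and 10.76 with RBP.

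In all 3 the groups overlapped, and in each 1 pair of arrays lay at least 0.57 apart. It was the RBP pair for Sod1 and Cat, and the IgG pair for Sod2. The differences were 0.04 ± 0.22 for Sod1, 0.19 ± 0.22 for Sod2 and 0.10 ± 0.22 for Cat (SE, n = 2 per group; limma, adjusted p = 0.89, 0.533 and 0.743). The 95% intervals ran from -0.50 to 0.59, from -0.36 to 0.73 and from -0.45 to 0.65. These arrays therefore left room for a change of up to about 1.5-fold for Sod1, 1.66-fold for Sod2 and 1.56-fold for Cat upward. The sign of all 3 turned negative after quantile normalization (-0.22, -0.04 and -0.18) and none of them passed there.

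Txnrd1 and Gclm supply the reducing thiols. Txnrd1, also a selenoprotein, passes electrons from NADPH to thioredoxin, and Gclm is the regulatory subunit of glutamate-cysteine ligase, the first enzyme of glutathione synthesis. Txnrd1 read 8.83 and 8.55 with IgG and 10.08 and 9.73 with RBP. The groups were well apart, with a difference of 1.22 ± 0.19 (SE, n = 2 per group; limma, adjusted p = 0.00887; 95% interval 0.74 to 1.69).

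Gclm read 10.10 and 10.26 with IgG and 10.43 and 11.07 with RBP. Both RBP arrays were above both IgG arrays, but they lay 0.64 apart, and the difference of 0.57 ± 0.24 did not pass (limma, adjusted p = 0.124). It was 0.88 without RBP array 1 and 0.25 without RBP array 2 (limma, adjusted p = 0.085 and 0.576). The call of Txnrd1 was lost without RBP array 1 (1.04; limma, adjusted p = 0.0623) and after quantile normalization (0.73; adjusted p = 0.0724), with the direction kept.

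Counted by separation alone, both RBP arrays were above both IgG arrays for 2 of the 10 enzymes, Txnrd1 and Gclm, against 37.4% of all genes. Both were below for 3, Prdx1, Prdx3 and Gpx4, against 36.2%. The other 5 overlapped, so 5 of 10 enzymes were separated in either direction, against 73.7% of all genes. At least 2-fold apart without overlap was met by Txnrd1 alone, against 13.5% of genes higher and 1.23% lower by that rule.

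**Figure D2:**
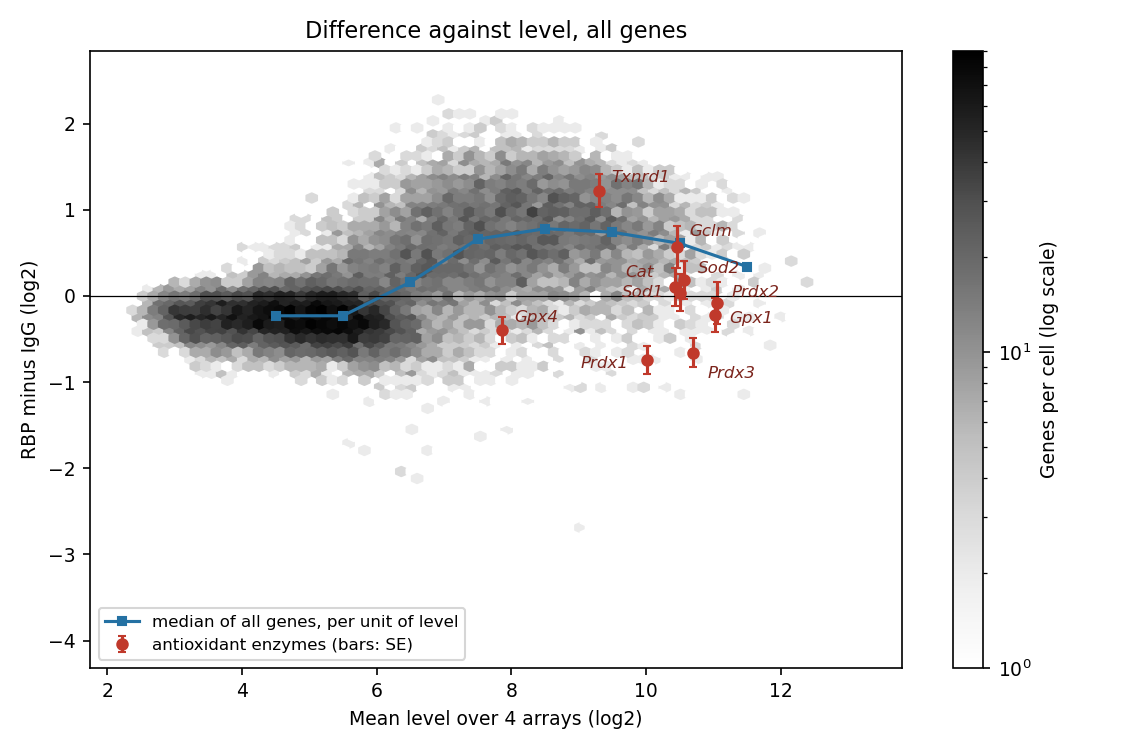
RBP minus IgG difference (y axis, log2) against the mean level over 4 arrays (x axis, log2) for 19938 genes, shaded by the number of genes on a log scale. Red points are the antioxidant enzymes with SE bars and the blue line is the median of all genes per unit of level; Txnrd1 lies above the line, Gclm on it, and the other 8 enzymes below it.

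The difference of a gene went with its level on these arrays. Of the 715 genes with a mean level from 10 to 11, 50.1% were higher, 6.57% were lower and the median difference was 0.61. The 6 enzymes in that range were Prdx1, Prdx3, Sod1, Sod2, Cat and Gclm, of which 0 were higher by limma (also 0 at an unadjusted p under 0.05) and 2 were lower. Prdx2 and Gpx1 lay from 11 to 12, where 39.1% of 169 genes were higher and the median difference was 0.34. Txnrd1 lay from 9 to 10, where 57.8% of 1650 genes were higher and the median difference was 0.74. Gpx4 lay from 7 to 8, where 47.1% of 2524 genes were higher and the median difference was 0.66.

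A fit in which the trend of the difference on level was subtracted set the enzymes against genes of like level. Of all genes, 5.63% were then higher and 5.09% lower. Prdx1 (-1.31; limma, adjusted p = 0.0199), Prdx3 (-1.09; adjusted p = 0.0224) and Gpx4 (-1.07; adjusted p = 0.0216) were lower, 0 enzymes were higher (1 at an unadjusted p under 0.05), and the median over the 10 enzymes was -0.43. Txnrd1 kept a difference of 0.54 but not its call (limma, adjusted p = 0.13), and Gclm was at 0.08. Sod1 (-0.43), Sod2 (-0.28), Cat (-0.40), Prdx2 (-0.43) and Gpx1 (-0.58) were all negative and did not pass.

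Scaling on genes that these cells are not known to use gave the opposite balance. When each array was centred on 1244 chemosensory receptor genes, the median of all genes moved from -0.02 to 0.29, 35.5% of genes were higher and 1.59% lower. Txnrd1 (1.53) and Gclm (0.88; limma, adjusted p = 0.0353) were then higher and 0 enzymes were lower (1 at an unadjusted p under 0.05), with Prdx1 at -0.42 and Prdx3 at -0.34 (adjusted p = 0.112 and 0.158). Relative to the moved median of 0.29, Prdx1, Prdx3, Gpx4 (-0.09), Gpx1 (0.09) and Prdx2 (0.23) lay below it and the other 5 enzymes above. Prdx1, Prdx3 and Gpx4 stayed negative, and Txnrd1 and Gclm positive, in each of these scalings and with each array left out.

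**Figure D3:**
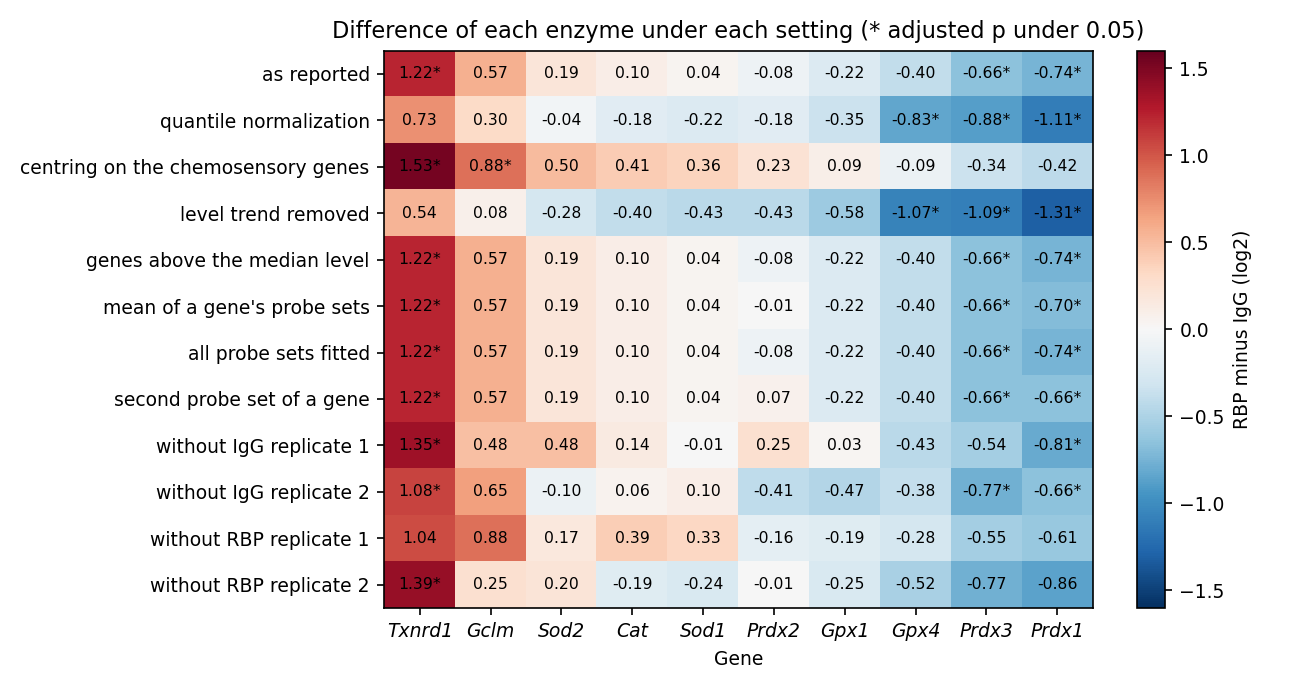
RBP minus IgG difference (log2, printed and coloured) of each enzyme (columns) under each setting (rows), with an asterisk where the limma adjusted p was under 0.05. The Txnrd1 column is positive and the Gpx4, Prdx3 and Prdx1 columns are negative in every row drawn, while the columns of Sod2, Cat, Sod1, Prdx2 and Gpx1 change sign.

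Grouped by what they do, the enzymes of one branch did not move together in the fit as reported. In the cytosolic thioredoxin branch the reductase Txnrd1 was higher, Prdx1 was lower and Prdx2 was at -0.08. Of the selenoproteins, Txnrd1 was higher and Gpx1 and Gpx4 had negative differences that did not pass. Of the mitochondrial enzymes, Prdx3 was lower and Sod2 was at 0.19. These contrasts depend on the scaling. With the trend on level removed, Txnrd1 was at 0.54 and lost its call, and Gpx4 (-1.07) passed as lower. Prdx1 and Prdx3 stayed lower there.

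Several of these genes are known targets of NRF2, a transcription factor that with small MAF proteins reads the antioxidant response element in promoters. The letters TGACNNNGC, the core of that element, were searched on both strands of the RefSeq promoter windows (GRCm38.p6, 250 bases before to 50 after each annotated start). All 10 enzymes had a window, 15 in all, and 4 windows (26.7%) held the letters, against 12.4% of 32851 windows of all genes. The 4 stretches are shown because they fall in the gene with the largest positive difference, the gene with the largest negative one, and 2 between them. Each is printed 5′ to 3′ on the minus strand, opposite to the gene, with the match in capitals.
Txnrd1, chr10:82859104-82859132: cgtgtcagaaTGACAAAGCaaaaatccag
Gclm, chr3:122245413-122245441: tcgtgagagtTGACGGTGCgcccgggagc
Sod1, chr16:90220696-90220724: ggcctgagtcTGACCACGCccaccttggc
Prdx1, chr4:116685456-116685484: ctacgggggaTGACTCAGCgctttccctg
The match centres lay 88, 130, 52 and 129 bases upstream of the annotated start. Genes with these letters thus had differences of 1.22, 0.57, 0.04 and -0.74, the whole range of the enzymes. This motif is shown as the core of the element, a choice made after 6 motifs had been counted. The other 5 were TGATNNNGC (0 enzyme windows, against 8.09% of all), TGACTCAGC (1 window, Prdx1, against 0.454%), TGAGTCA (1, Prdx1, against 5.20%), GGGCGG (12 windows in 10 enzymes, against 35.7%) and TATAAA (3, in Prdx1, Prdx3 and Sod1, against 13.6%); the Prdx1 match of TGACTCAGC is the one printed, and it overlaps a TGAGTCA match read on the opposite strand. A match describes letters in a window, and immunoprecipitated RNA does not measure transcription.

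The other genes of the redox system were called higher at a share near that of genes at like level. Of 83 measured genes in 10 lists, 26 (31.3%) were higher and 0 lower by limma (35 and 2 at an unadjusted p under 0.05), against 23.8% and 6.54% of all genes, with a median difference of 0.38. At a mean level of 7 or more, 23 of 49 of them (46.9%) were higher with a median of 0.60, against 52.4% and 0.70 for all genes at that level. Their counts also moved with scaling: 13 higher and 1 lower after quantile normalization, and 2 higher and 5 lower with the trend on level removed. Fewer of them were called higher without either RBP array, as was so for all genes.

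**Figure D4:**
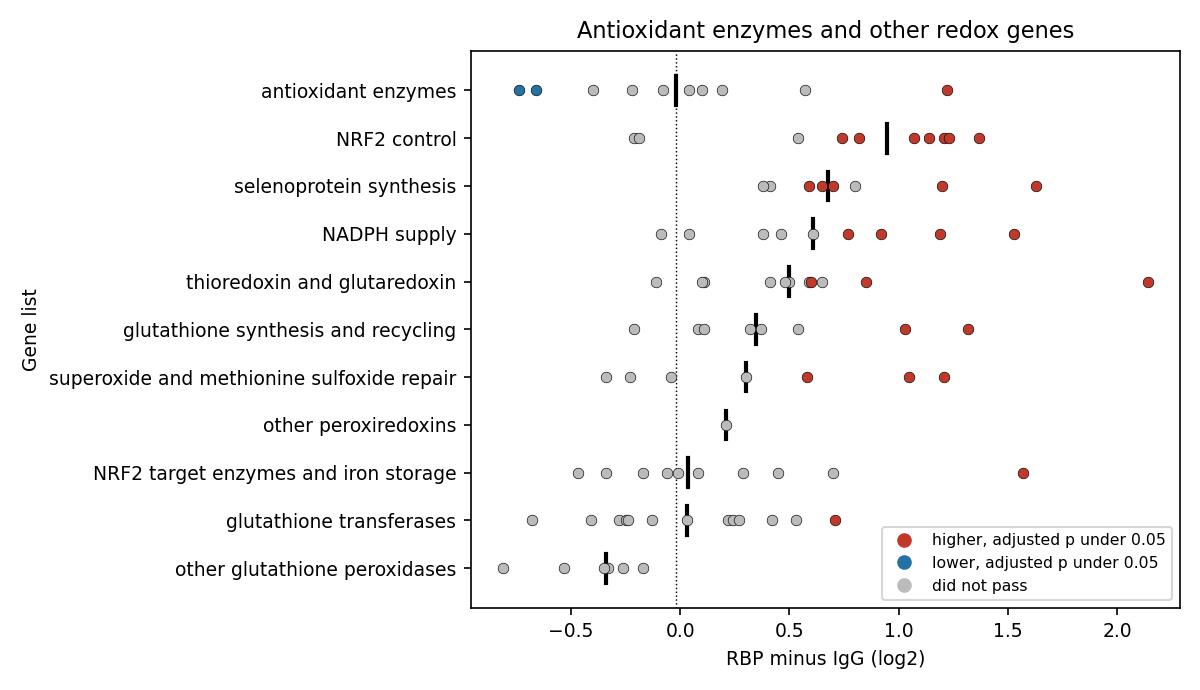
RBP minus IgG difference (x axis, log2) of each antioxidant enzyme (top row) and each other redox gene by list (rows). Red points were higher and blue points lower at a limma adjusted p under 0.05, grey points did not pass, black bars are list medians and the dotted line is the median of all genes (-0.02); the blue points are Prdx3 and Prdx1.

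Genes that control NRF2 had the highest list median, 0.94, with 7 of 10 higher. Their median level was 8.69, and of all genes from 8 to 9, 56.4% were higher with a median of 0.78. After quantile normalization 4 of the 10 were higher, and with the trend on level removed 0 were (0 lower). In the fit as reported, Nfe2l1, a relative of NRF2, differed by 1.37 ± 0.17, the small MAF partner Mafk by 1.23 ± 0.16, Bach1, a heme-sensing repressor at the same element, by 1.21 ± 0.18, and Keap1, which marks NRF2 for degradation, by 1.14 ± 0.17 (SE; limma, adjusted p from 0.00593 to 0.00771). Bach1 and Keap1 lost their calls without RBP array 1 (limma, adjusted p = 0.0576 and 0.06). Nfe2l2, which encodes NRF2, read 9.50 and 9.28 with IgG and 9.92 and 10.50 with RBP. It passed narrowly (0.82 ± 0.23; limma, adjusted p = 0.0434) and was lost when any 1 array was left out (adjusted p from 0.0522 to 0.25).

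Among 10 NRF2 target enzymes and iron storage genes, 1 was higher, the transporter Abcc4 (1.57 ± 0.24; limma, adjusted p = 0.00801). At an unadjusted p under 0.05, 2 were higher and 1 lower. The list median was 0.03 at a median level of 7.38. Of all genes from 7 to 8, 47.1% were higher with a median of 0.66. With quantile normalization 1 was higher. With the trend removed 0 were higher and 2 lower, against 5.63% and 5.09% of all genes. Abcc4 was then at 0.87 (limma, adjusted p = 0.0699).

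The machinery that inserts selenocysteine was higher in 5 of 8 genes, with a median of 0.68 at a median level of 8.39, against the same 56.4% and 0.78 for all genes from 8 to 9. With quantile normalization or the trend removed, 1 of 8 was higher. Sepsecs, which makes selenocysteine on its transfer RNA, differed by 1.63 ± 0.14, and Sephs1, a relative of the selenophosphate synthetase, by 1.20 ± 0.23. Trnau1ap, which binds that transfer RNA, differed by 0.65 ± 0.15, and Secisbp2, which recognises the selenocysteine insertion element, by 0.70 ± 0.18 (SE; limma, adjusted p from 0.00558 to 0.032). The fifth was Sars, the seryl-tRNA synthetase. Without RBP array 1 or RBP array 2 the calls of Secisbp2 (adjusted p = 0.216 and 0.127) and Trnau1ap (0.156 and 0.183) were lost, and that of Sephs1 without RBP array 2 (0.0811). Of these, the call of Sepsecs remained with the trend on level removed (0.95; adjusted p = 0.0216).

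Of 11 thioredoxin and glutaredoxin genes 3 were higher, at a median level of 8.58, against the same 56.4% from 8 to 9. With quantile normalization or the trend removed 1 was higher. Txnrd3, a thioredoxin-glutathione reductase related to Txnrd1, had the largest difference of all the redox genes. It read 6.05 and 6.01 with IgG and 8.31 and 8.04 with RBP, a difference of 2.14 ± 0.16 (SE, n = 2 per group; limma, adjusted p = 0.00558), and it stayed higher with the trend on level removed (1.62; adjusted p = 0.0169). Glrx5, a mitochondrial glutaredoxin of iron-sulfur cluster assembly that is needed for heme synthesis, differed by 0.85 ± 0.15, and Txnip, which binds and inhibits thioredoxin, by 0.60 ± 0.14 (limma, adjusted p = 0.012 and 0.0275). Both lost their calls with either RBP array left out (adjusted p = 0.119 and 0.0647 for Glrx5, 0.221 and 0.181 for Txnip). Txn1, thioredoxin itself, was at 0.41 ± 0.14 and missed the threshold (limma, adjusted p = 0.0785). It passed when arrays were centred on chemosensory receptor genes (0.73; limma, adjusted p = 0.0104) and with a trended, robust variance prior (0.0433).

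Of 8 genes of glutathione synthesis and recycling 2 were higher, Gclc and Gss. The list median was 0.35 at a median level of 7.30, against 47.1% and 0.66 for all genes from 7 to 8. With the trend removed 0 were higher and 1 was lower. Gclc was then at 0.42 and Gss at 0.70 (limma, adjusted p = 0.198 and 0.0794). With quantile normalization the call of Gss remained (1.04; limma, adjusted p = 0.041) and that of Gclc did not (0.60; 0.0881). Gclc, the catalytic partner of Gclm, read 9.03 and 9.40 with IgG and 10.30 and 10.20 with RBP, a difference of 1.03 ± 0.18 (SE, n = 2 per group; limma, adjusted p = 0.0116). Gss, glutathione synthetase, differed by 1.32 ± 0.20 (adjusted p = 0.0082). Without RBP array 1 both lost their calls (adjusted p = 0.0804 and 0.0542), and Gclc also without RBP array 2 (0.0591). Gsr, which regenerates glutathione, was at 0.32 ± 0.21 (limma, adjusted p = 0.285). It was at 0.58 without IgG array 1 and 0.06 without IgG array 2 (adjusted p = 0.0426 and 0.764). Centred on chemosensory receptor genes it passed as higher (0.63; limma, adjusted p = 0.0494), and its sign turned after quantile normalization (-0.03) and with the trend removed (-0.24).

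NADPH supply had 4 of 9 genes higher and a median of 0.61 at a median level of 8.28, again against 56.4% and 0.78. With quantile normalization 1 was higher and with the trend removed 0 were. Pgd, of the pentose phosphate pathway, differed by 1.19 ± 0.16, the mitochondrial transhydrogenase Nnt by 0.92 ± 0.16, and the NAD kinase Nadk by 0.77 ± 0.15 (SE; limma, adjusted p from 0.00639 to 0.0147). Idh1, the cytosolic isocitrate dehydrogenase, differed by 1.53 ± 0.44 and passed narrowly (adjusted p = 0.0471), with IgG arrays at 7.58 and 6.20. It was 2.22 without IgG array 1 and 0.85 without IgG array 2 (limma, adjusted p = 0.00955 and 0.0299). Leaving out RBP array 1 or RBP array 2 ended the calls of Nnt (adjusted p = 0.104 and 0.0547), Nadk (0.148 and 0.0869) and Idh1 (0.155 and 0.0834).

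The 7 genes of superoxide handling and protein repair had a median level of 6.90. Of all genes from 6 to 7, 23.4% were higher with a median of 0.16. In the list, 2 were higher with quantile normalization and 0 with the trend removed. As reported, 3 of the 7 were higher, with a list median of 0.30. They were Park7, a redox-sensitive protein (1.21 ± 0.17), the methionine sulfoxide reductase Msrb2 (1.05 ± 0.14) and Ccs, the chaperone that loads copper into Sod1 (0.58 ± 0.16; limma, adjusted p = 0.0071, 0.00651 and 0.0408). Ccs lost its call without IgG array 2 or either RBP array (adjusted p from 0.058 to 0.322), Msrb2 without either RBP array (0.0522 and 0.0516) and Park7 without RBP array 2 (0.0505). Of 13 glutathione transferases, Gstk1 alone was higher (0.71 ± 0.18; limma, adjusted p = 0.0361), against the same 23.4%. It was at 0.65 without RBP array 1 and 0.76 without RBP array 2. The list median was 0.03 at a median level of 6.43. With quantile normalization 1 transferase was higher and 1 lower, and with the trend removed 0 were higher and 2 lower.

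The other glutathione peroxidases and Prdx4 did not pass. Of the 6 other glutathione peroxidases 0 were called by limma (1 lower at an unadjusted p under 0.05), and the median was -0.34. Gpx8 (-0.81 ± 0.28) and Gpx3 (-0.53 ± 0.24) had the largest differences (limma, adjusted p = 0.0766 and 0.146), and both passed as lower without IgG array 2 (-1.22 and -0.87; adjusted p = 0.00922 and 0.0134). Without IgG array 1 they were at -0.40 and -0.20 and did not pass (limma, adjusted p = 0.0807 and 0.297). The mean levels of Gpx5 (4.47), Gpx6 (4.01), Gpx7 (5.32) and Gpx8 (4.73) were under the value that 95% of chemosensory receptor genes do not exceed (5.36), so the sizes of their differences are uncertain. Genes of any kind at a level from 4 to 5 had a median of -0.23, as had those from 5 to 6. Prdx4, the peroxiredoxin of the endoplasmic reticulum, was at 0.21 ± 0.16 (adjusted p = 0.352).

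Markers of the sorted cells were present on every array. The 10 erythroid progenitor markers had a mean level of 9.84 and 9.96 with IgG and 10.37 and 10.53 with RBP, and 4 of them were higher by limma (0 lower), against 57.8% of all genes from 9 to 10, where their median level of 9.93 lay. With quantile normalization or the trend removed 0 were called. Of 7 terminal erythroid markers 2 were higher, Epb42 (1.38 ± 0.18) and Hemgn (0.90 ± 0.17; limma, adjusted p = 0.00646 and 0.0138). Of 6 megakaryocyte markers 1 was higher, Gp9 (0.82 ± 0.15; limma, adjusted p = 0.0141). The share of all genes was 23.8%. It was 4.06% from 5 to 6, where the terminal erythroid median level of 5.55 lay. It was 23.4% from 6 to 7, where the megakaryocyte median level of 6.91 lay. Epb42 and Hemgn themselves had mean levels of 6.99 and 7. The list medians of the difference were 0 and 0.2. Both RBP arrays lay above both IgG arrays for 2 and 3 markers (37.4% of all genes), and below for 2 and 1 (36.2%). Those below were Hbb-y (-0.62), Hbb-bh1 (-0.37) and Ppbp (-0.28), which did not pass. Their mean levels (4.72, 3.95 and 4.12) were under the chemosensory value of 5.36, so the sizes of their differences are uncertain. The 11 hepatocyte markers are of cells that are rich in catalase and glutathione peroxidase. They had a mean level of 6.04 and 5.55 with IgG and 6.02 and 5.57 with RBP. By limma 0 were called (1 lower at an unadjusted p under 0.05). Their median level was 5.38, close to 5.36, and of all genes from 5 to 6, 4.06% were higher and 10.3% lower. Albumin (Alb) read 7.58 and 5.70 with IgG and 7.77 and 6.27 with RBP, higher on the arrays numbered 1, as Prdx2, Gpx1 and Sod2 were in the IgG pair. Cat differed little in that pair (10.42 and 10.33). The hepatocyte markers Apoa2 (6.54 and 7.02) and Hnf4a (6.93 and 7.13) were lower on IgG array 1. So was Ahsg (4.69 and 4.82), but its mean level of 4.94 was under 5.36. The macrophage and granulocyte lists, given next, also had higher means on the arrays numbered 1. So did the terminal erythroid list (5.87 and 5.47 with IgG, 6.02 and 5.69 with RBP). The erythroid progenitor list had lower means on them, and the megakaryocyte list only in the IgG pair. The 10 macrophage markers had a mean level of 6.11 and 5.76 with IgG and 5.91 and 5.62 with RBP. Of these 10, 2 were lower, Cd68 (-1.59 ± 0.18) and Marco (-0.76 ± 0.19), against 6.54% of all genes. From 5 to 6, where the macrophage median level of 5.36 lay, 10.3% of all genes were lower. Csf1r (1.12 ± 0.46) and Adgre1 (0.58 ± 0.25) were on the other side, with both RBP arrays above both IgG arrays, and did not pass (limma, adjusted p = 0.117 and 0.132). Of 11 granulocyte and mast cell markers, with a median level of 5.83, 1 was lower, Elane, against the same 6.54% and 10.3%. That list had a mean level of 7.17 and 6.44 with IgG and 6.75 and 6.17 with RBP. Its levels were uneven. Mpo read 11.40 and 10.53 with IgG and 11.49 and 10.56 with RBP, and the mean level of Elane was 8.96. The part of these markers in the values of the enzymes was not tested. A level in pulled-down RNA from a cell population cannot tell apart more cells of a type, more RNA per cell and stronger recovery.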

How the data were processed

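RNA from 4 immunoprecipitates (2 with IgG, 2 with the RBP antibody) was hybridised to 1 array each. For each probe set the authors deposited a log2 value from RMA, with affy also named, per the submitters' processing notes. Versions and filters are not given there, and the log2 scale was read from the values (1.83 to 13.87). Medians and spreads differ between columns, so these had not been made equal after summarisation. All 4 columns were used.

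Of 35556 probe sets, 21789 carried 1 gene symbol, 1621 several and 12146 none in the platform annotation, and 21698 of the 21789 matched RefSeq (GRCm38.p6) by Entrez identifier, which changed 0 symbols. Each of 19938 genes was represented by its probe set with the highest mean. Prdx5, Prdx6, Ggt1 and G6pdx were not analysed here, as no probe set carried their symbol alone.

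Differences (RBP minus IgG, two-sided) were fitted in R 4.3.3 with limma 3.58.1 (lmFit and eBayes) with 2 residual and 3.76 prior degrees of freedom. The 95% intervals use the moderated variance. The fit was tested on simulated data. The number of arrays limits the precision.

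Members and lists were chosen with earlier results of these data known. All 10 enzymes were named, and from each list of other redox genes up to 4 called genes with the largest absolute difference, or 2 where none was called, besides Nfe2l2, Keap1, Bach1, Gclc, Gsr and Txn1. Sars, Gpx5, Gpx6, Gpx7, Cd68, Marco, Csf1r, Adgre1, Epb42, Hemgn, Hbb-y, Hbb-bh1, Gp9, Ppbp, Elane, Mpo, Alb, Ahsg, Apoa2 and Hnf4a were named after their values were seen. Alternatives were quantile normalization, centring on chemosensory receptor genes (symbols starting Olfr, Vmn1r, Vmn2r, Taar, Tas1r or Tas2r), removal of the loess trend on level (span 0.3), a filter at the median level, a block for the replicate number, other ways to combine probe sets, each array left out in turn, other variance options, a threshold of 0.1 and a 2-fold size rule.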

Additional observations from a re-analysis of the deposited data

How the results depend on the processing

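The number of enzymes called higher was 1 as reported, 0 with quantile normalization, with the level trend removed and without variance moderation, 2 with centring on the chemosensory genes and with the replicate block, and 0 to 1 with an array left out. The number called lower was 2 as reported, 0 with centring on the chemosensory genes, without variance moderation and by the 2-fold size rule, 3 with quantile normalization and with the trend removed, and 0 to 2 with an array left out. Without moderation, 1 enzyme was higher and 1 lower at an unadjusted p under 0.05. Of the other redox genes, 26 were higher as reported, 13 with quantile normalization, 44 with centring, 2 with the trend removed, 0 without moderation (23 at an unadjusted p under 0.05), 15 by the size rule and 9 to 35 with an array left out. The number lower was 0 as reported, 1 with quantile normalization, 5 with the trend removed, 3 with the replicate block, 2 at a threshold of 0.1 and 0 to 7 with an array left out. The cause of these changes was not tested.

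Over all genes, the counts higher and lower were 4741 and 1304 as reported, 2207 and 553 with quantile normalization, 7074 and 317 with centring, 1122 and 1014 with the trend removed, 5885 and 2199 with the block, 4917 and 2905 without IgG array 2, 1724 and 99 without the RBP array numbered 1, 2058 and 151 without the other, 2 and 1 without moderation, 5763 and 2671 at a threshold of 0.1, and 2690 and 246 by the size rule.

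Signs turned for genes near 0. Cat was at -0.40 with the trend removed, -0.18 with quantile normalization and -0.19 to 0.39 with an array left out. Sod1 was at -0.43, -0.22 and -0.24 to 0.33, and Sod2 at -0.28, -0.04 and -0.10 to 0.48. Prdx2 was at 0.23 and Gpx1 at 0.09 with centring, and at -0.41 to 0.25 and -0.47 to 0.03 with an array left out. Prdx2 was at 0.07 with a gene's second probe set, an alternative chosen after seeing the data. Gsr was at -0.24 with the trend removed and -0.03 with quantile normalization. Txnip, called higher as reported, was at -0.07 with the trend removed (limma, adjusted p = 0.792).

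The groups share only replicate numbers. Deviations of same-numbered arrays correlated at 0.255 across genes, which does not show pairing with 2 pairs. With the replicate block, Gclm passed as higher (0.57; limma, adjusted p = 0.0294), as did Gpx3 (-0.53) and Gpx8 (-0.81) as lower, and no other enzyme, or redox gene named by the rule, changed its call. Sars and the marker genes were not followed one by one through the alternatives. The marker lists were counted with quantile normalization and with the trend removed. In both, 1 terminal erythroid marker was higher, and 1 macrophage marker and 1 granulocyte or mast cell marker were lower. Of the megakaryocyte markers 1 was higher with quantile normalization and 0 with the trend removed. Of the hepatocyte markers 0 were called in either.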
